A study of Mus musculus with 20 samples.

Results

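B cell genes were described in mouse pancreatic ductal adenocarcinomas of 3 genotypes. The set holds 10 genes named by symbol and matched to the Ensembl identifiers of the deposited table, out of 20636 genes in that table: Ighm, Ighd, Cd22, Bank1, Fcrla, Ms4a1, Cd79a, Cd79b, Cr2 and Spib. Every mouse carried KrasLSL-G12D, Rosa26LSL-tdTomato/LSL-tdTomato and Ptf1aCreER, a tamoxifen-activated Cre driven from an acinar cell gene, so that the tumours derive from the enzyme-secreting acinar cells of the pancreas. KPAT mice were floxed at Trp53 (Trp53fl/fl) and at Cdkn2A-Arf (Arf-fl/fl), KAT mice at Cdkn2A-Arf with Trp53 not floxed, and KPT mice at Trp53 (Trp53fl/fl) with Cdkn2A-Arf not floxed. Each genotype gave 5 tumours. Tamoxifen (5 mg by gavage on each of 3 days) was given at 8 to 10 weeks of age and the mice were then kept until morbid, so the age at sampling was not the same fixed time for all. The Cre driver is not a B cell gene, and RNA came from whole tumours, so transcripts of B lymphocytes reached the libraries with those of cancer cells, stroma and other leukocytes. A group without either floxed tumour suppressor (KT) is not analysed here.

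B lymphocytes recognise antigen with a membrane immunoglobulin. Naive B cells splice the heavy chain constant genes Ighm (IgM) and Ighd (IgD) from one transcript, and the membrane immunoglobulin signals through the CD79A and CD79B chains. CD22 dampens that signal, complement receptor 2 (Cr2) lowers its threshold, the adaptor BANK1 and the intracellular Fc receptor-like protein FCRLA act inside the cell, CD20 (Ms4a1) lies in the membrane, and the Ets factor Spi-B (Spib) acts in the nucleus. After activation B cells can switch to IgG, IgA or IgE and become plasma cells, which keep making immunoglobulin while losing Ms4a1 and Cr2. In pancreatic tumours B cells can gather in lymphoid aggregates or lie scattered in the stroma.

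Libraries held 14696138 to 26248484 gene-assigned reads. Levels are given in the deposited units, which are reads divided by a factor per library (14.9 to 27.0 reads per unit). A count of 0 reads allows up to 3 reads, 0.111 to 0.201 units depending on the library, and covers counting error only. Trp53, the gene floxed in KPAT and KPT, had 32.9 to 57.2 units in KPAT and 99.0 to 148 units in KAT against 22.7 to 26.3 units in KPT, and was highest where it is not floxed. Cdkn2a was called in none of the comparisons (limma adjusted p = 0.166 in KPAT against KPT, 0.696 in KAT against KPT and 0.608 in KPAT against KAT). The floxed exons are not named in the sources used here, so Cdkn2a checks nothing about recombination. Ductal epithelium markers summed to 12178 to 15380 units in KPAT, 9890 to 13188 in KAT and 12447 to 20265 in KPT, so they were abundant in every tumour. The numbers in the library names fall into separate ranges for the 3 genotypes. The labels do not say what these numbers stand for, so whatever they follow cannot be told apart from genotype.

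The libraries KPAT 5, KAT 2 and KPT 3 stood apart by ribosomal RNA genes, which took 0.711% of reads in KPAT 5, 2.1% in KAT 2 and 1.03% in KPT 3, against 0.0604% to 0.291% in the other 12. The same libraries held the lowest values of the B cell genes in their groups. KAT 2 was the lowest KAT tumour for 10 of the 10 genes, KPAT 5 was the lowest KPAT tumour for 8, and KPT 3 was the lowest KPT tumour for 8. The results are therefore given with and without these libraries, and the part of RNA composition in them was not tested. These libraries were singled out after their values were seen. Leaving out KAT 2 raises the KAT level of every one of the 10 genes, so values without it are a description.

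RefSeq promoters (GRCm38.p6) were at hand for 6 of the 10 genes: Fcrla, Cr2, Bank1, Cd79a, Cd22 and Spib. The 250 bases before the RefSeq start were searched on both strands for letters bound by B cell factors, namely CAGGTG (E-box of E2A), the EBF palindrome, ATGCAAAT (octamer) and GAGGAAGT (PU.1 and Spi-B). CAGGTG lay in 5 of the 6 windows, Spib being without it, and in 17.2% of 32851 promoter windows overall. The EBF palindrome lay in 1 of the 6 windows, that of Cd22 (0.779% overall), and ATGCAAAT (1.6% overall) and GAGGAAGT (2.44% overall) lay in none of them. Such a match describes letters and not a bound site. The 4 windows below are those that end at the annotated start of the gene in GENCODE as well or lie within a few bases of it, and they show where the E-box falls (capitals, CAGGTG or its reverse complement CACCTG) and the window that lacks it. They lie at chr3:136326067-136326316 for Bank1, chr1:170927584-170927833 for Fcrla, chr1:195176720-195176969 for Cr2 and chr7:44532072-44532321 for Spib, all on the minus strand.
Bank1: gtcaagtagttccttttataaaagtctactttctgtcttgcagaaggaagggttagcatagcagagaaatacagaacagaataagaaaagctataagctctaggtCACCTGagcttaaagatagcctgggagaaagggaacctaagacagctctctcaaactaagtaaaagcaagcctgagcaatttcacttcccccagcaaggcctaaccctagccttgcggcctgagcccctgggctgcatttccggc
Fcrla: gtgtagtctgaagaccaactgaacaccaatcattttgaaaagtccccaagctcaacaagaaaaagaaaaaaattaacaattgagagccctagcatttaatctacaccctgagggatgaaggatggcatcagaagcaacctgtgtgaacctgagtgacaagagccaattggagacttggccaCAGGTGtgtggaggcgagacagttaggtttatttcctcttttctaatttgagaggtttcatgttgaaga
Cr2: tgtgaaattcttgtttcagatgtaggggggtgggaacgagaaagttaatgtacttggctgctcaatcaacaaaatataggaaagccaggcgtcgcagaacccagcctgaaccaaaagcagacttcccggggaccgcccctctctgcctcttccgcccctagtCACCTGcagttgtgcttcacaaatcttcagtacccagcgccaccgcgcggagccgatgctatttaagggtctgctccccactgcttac
Spib: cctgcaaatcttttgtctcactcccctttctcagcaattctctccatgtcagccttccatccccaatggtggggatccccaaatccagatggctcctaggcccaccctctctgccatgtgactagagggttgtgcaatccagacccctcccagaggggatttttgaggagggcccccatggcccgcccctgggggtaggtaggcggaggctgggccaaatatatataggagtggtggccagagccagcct

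KAT against KPT asks how tumours with floxed Arf differ from tumours with floxed Trp53. Of the 10 B cell genes, 6 passed the test as higher in KAT (Ighm, Cd22, Bank1, Fcrla, Ms4a1 and Spib), where 15.6% of the 16648 genes tested were called higher and 28.9% in either direction. Their log2 fold changes ran from 1.97 for Cd22 to 4.47 for Spib. The other 4, Ighd, Cd79a, Cd79b and Cr2, had positive log2 fold changes of 1.31 to 2.20 that did not pass. The median over the 10 was 2.42, beside 0.03 over all genes tested. All fold changes are differences on the log2(normalized count + 1) scale from limma with Benjamini-Hochberg adjustment over all genes, which understates the change of low genes. All 10 genes passed the minimum mean of 10 normalized counts over the 15 libraries. Ms4a1 and Cr2 in KPAT and Bank1, Fcrla and Ms4a1 in KPT averaged below it, so these 4 genes entered the test through KAT. A higher level in KAT was thus partly built into their being tested, and Bank1, Fcrla and Ms4a1 are among the 6 calls. In bulk tissue, fewer B cells and less RNA per B cell cannot be told apart.

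**Figure D1:**
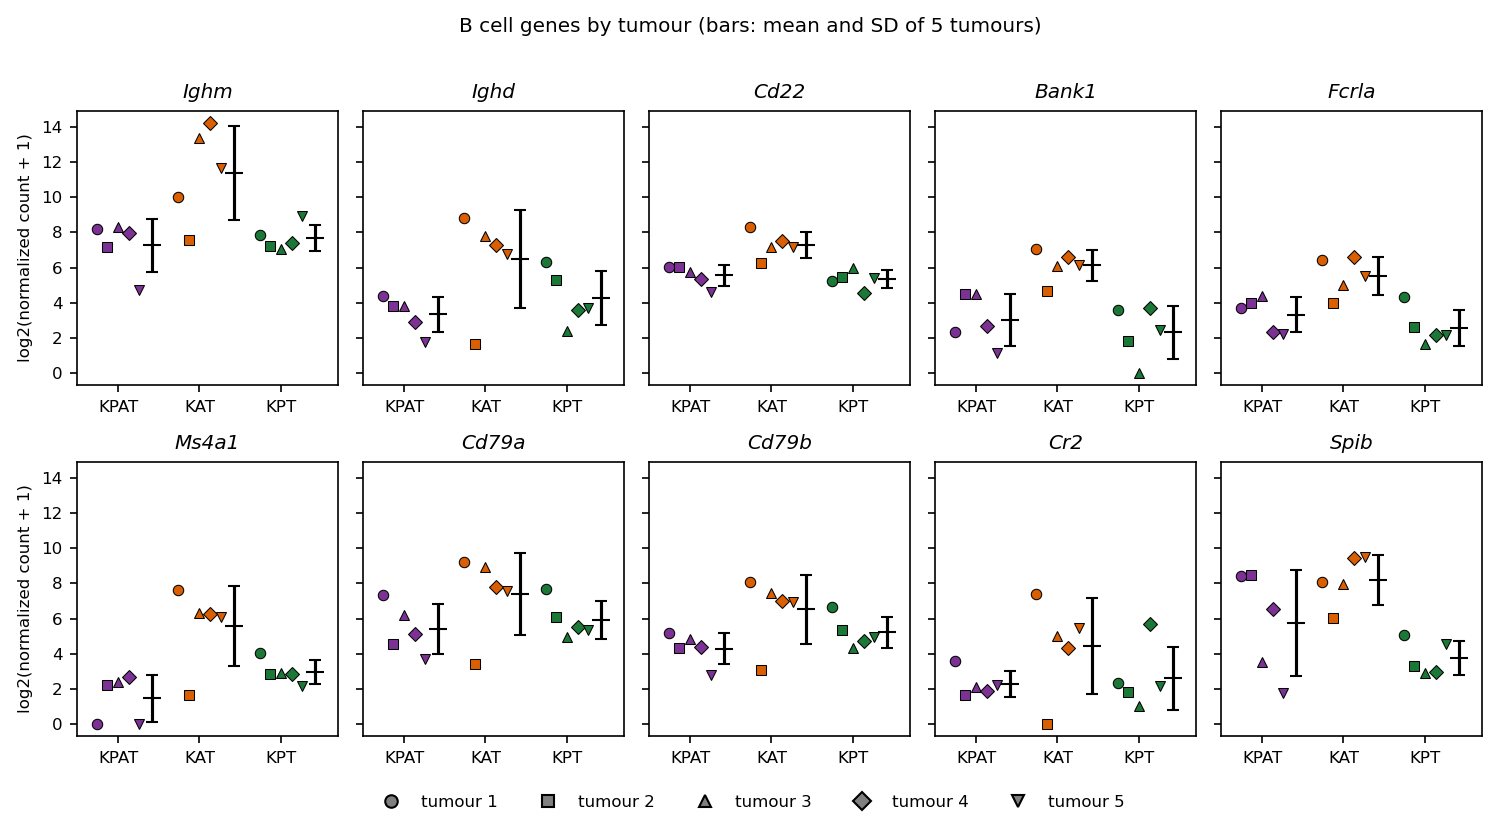
Level of each of the 10 B cell genes in each tumour, as log2(normalized count + 1) on the y axis, with KPAT, KAT and KPT from left to right, 1 symbol shape per tumour number, and the mean and SD of 5 tumours as a bar. KAT tumours 1, 3, 4 and 5 lie high for most genes, while KAT 2 (squares) is the lowest KAT tumour for 10 of the 10 genes.

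The antigen receptor genes are Ighm, Ighd, Cd79a and Cd79b. Ighm (ENSMUSG00000076617, chromosome 12, 113418558 to 113422730), the constant gene of IgM, had 15.2, 7.45, 16.3, 12.7 and 1.28 units in KPAT 1 to 5 and 54.2, 9.66, 546, 987 and 171 units in KAT 1 to 5, against 11.7, 7.67, 6.75, 8.72 and 24.8 units in KPT 1 to 5. KAT 1, 3, 4 and 5 lay above every KPT and KPAT tumour, KAT 2 lay among the KPT and KPAT tumours, and KAT 4 alone held 22682 Ighm reads. Means were 10.6 ± 6.23 units in KPAT and 354 ± 412 units in KAT against 11.9 ± 7.42 units in KPT (SD, n = 5 each). For KAT against KPT the log2 fold change was 3.69 (SE 1.03, limma adjusted p = 0.0159), and it passed with any 1 library left out (2.98 to 4.65).

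Ighd (ENSMUSG00000104213, chromosome 12, 113406604 to 113416324), the constant gene of IgD, had 1.01, 0.667, 0.654, 0.336 and 0.122 units in KPAT 1 to 5 and 23.5, 0.110, 11.2, 7.88 and 5.55 units in KAT 1 to 5, against 4.01, 1.98, 0.216, 0.572 and 0.624 units in KPT 1 to 5. KAT 1, which was next to lowest for Ighm in its group, was the highest tumour for Ighd, and KAT 2 held 2 Ighd reads. The KAT against KPT log2 fold change of 2.20 (SE 1.11) did not pass (limma adjusted p = 0.148). Without KAT 2, left out after its low values were seen, it was 3.40 (limma adjusted p = 0.0055), which is a description.

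The signalling chains were high and low in the same tumours as Ighd. Cd79a (ENSMUSG00000003379, chromosome 7, 24897381 to 24902197) had 8.33, 1.15, 3.65, 1.74 and 0.608 units in KPAT 1 to 5 and 30.6, 0.494, 24.8, 11.4 and 9.72 units in KAT 1 to 5, against 10.6, 3.45, 1.51, 2.29 and 2.05 units in KPT 1 to 5. Cd79b (ENSMUSG00000040592, chromosome 11, 106311341 to 106314762) had 1.77, 0.963, 1.42, 1.01 and 0.304 units in KPAT 1 to 5 and 13.9, 0.384, 9.09, 6.53 and 6.37 units in KAT 1 to 5, against 5.17, 2.05, 0.972, 1.32 and 1.56 units in KPT 1 to 5. KAT 2 lay below every KPT tumour for both genes, and KPT 1 lay above KAT 5 for Cd79a. Log2 fold changes for KAT against KPT were 1.47 (SE 0.97, limma adjusted p = 0.265) for Cd79a and 1.31 (SE 0.79, limma adjusted p = 0.219) for Cd79b. Without KAT 2, the lowest KAT tumour for both, they were 2.46 (limma adjusted p = 0.02) and 2.17 (limma adjusted p = 0.00852). These 2 values are a description, since leaving out that tumour raises the KAT level.

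Of the surface molecules that tune the receptor, Cd22 (ENSMUSG00000030577, chromosome 7, 30865402 to 30880342) had the smallest adjusted p of the 10 genes. It had 3.28, 3.30, 2.67, 2.01 and 1.22 units in KPAT 1 to 5 and 16.4, 3.84, 7.31, 9.40 and 7.42 units in KAT 1 to 5, against 1.91, 2.24, 3.13, 1.15 and 2.09 units in KPT 1 to 5. All 5 KAT tumours, KAT 2 included, lay above all 5 KPT and all 5 KPAT tumours in units. KAT 2 had 3.84 units from 70 reads, beside 3.30 from 89 in KPAT 2 and 3.13 from 58 in KPT 3. These gaps were within counting error. The KAT against KPT log2 fold change was 1.97 (SE 0.38, limma adjusted p = 0.00235) and passed with any 1 library left out (1.71 to 2.23).

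Ms4a1 (ENSMUSG00000024673, chromosome 19, 11249675 to 11266241), the gene of CD20, had 0, 0.185, 0.218, 0.268 and 0 units in KPAT 1 to 5 and 9.94, 0.110, 4.07, 3.87 and 3.46 units in KAT 1 to 5, against 0.803, 0.320, 0.324, 0.308 and 0.178 units in KPT 1 to 5. These are 0 to 5 reads in KPAT, 2 reads in KAT 2 with 63 to 212 in the other KAT tumours, and 4 to 16 reads in KPT. The log2 fold change for KAT against KPT was 2.64 (SE 0.93, limma adjusted p = 0.0448). The call was lost with any 1 of 9 libraries left out (KPAT 2, KAT 1, 3, 4 and 5, KPT 2, 3, 4 and 5), where the adjusted p reached 0.106. Without KAT 2, the lowest KAT tumour, the log2 fold change was 3.62 (limma adjusted p = 0.00183), given as a description.

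Cr2 (ENSMUSG00000026616, chromosome 1, 195136811 to 195176716), the complement receptor of mature B cells and of follicular dendritic cells, had 0.556, 0.111, 0.163, 0.134 and 0.182 units in KPAT 1 to 5 and 8.67, 0, 1.62, 0.958 and 2.20 units in KAT 1 to 5, against 0.201, 0.128, 0.054, 2.60 and 0.178 units in KPT 1 to 5. KPT 4 with 59 reads lay above KAT 3, 4 and 5, and the other 4 KPT tumours held 1 to 4 reads. The KAT against KPT log2 fold change of 1.84 (SE 1.13) did not pass (limma adjusted p = 0.231). Without KAT 2, the lowest KAT tumour, it was 2.95 (limma adjusted p = 0.0221), given as a description.

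The genes of intracellular proteins included the largest differences. Bank1 (ENSMUSG00000037922, chromosome 3, 136053363 to 136326066), an adaptor that links the receptor to Lyn-dependent signalling, had 0.202, 1.11, 1.09, 0.268 and 0.0608 units in KPAT 1 to 5 and 6.89, 1.26, 3.45, 5.01 and 3.57 units in KAT 1 to 5, against 0.552, 0.128, 0, 0.616 and 0.223 units in KPT 1 to 5. The 5 KAT tumours, with 23 to 147 reads, lay above all KPT tumours (0 to 14 reads). They lay above all KPAT tumours (1 to 30 reads) in units only, since KAT 2 had 1.26 units from 23 reads and KPAT 2 had 1.11 units from 30 reads, a gap within counting error. The log2 fold change for KAT against KPT was 3.83 (SE 0.78, limma adjusted p = 0.00302) and passed with any 1 library left out (3.25 to 4.19).

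Fcrla (ENSMUSG00000038421, chromosome 1, 170917576 to 170927583) had 0.606, 0.741, 1.04, 0.201 and 0.182 units in KPAT 1 to 5 and 4.45, 0.769, 1.57, 4.96 and 2.25 units in KAT 1 to 5, against 0.953, 0.256, 0.108, 0.176 and 0.178 units in KPT 1 to 5. KAT 2 lay below KPT 1 and the other KAT tumours lay above all others. The log2 fold change was 2.94 for KAT against KPT (SE 0.64, limma adjusted p = 0.00404) and passed with any 1 library left out (2.67 to 3.37).

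Spib (ENSMUSG00000008193, chromosome 7, 44525993 to 44532071) followed another pattern across KPAT. It had 17.3, 18.2, 0.545, 4.76 and 0.122 units in KPAT 1 to 5 and 13.8, 3.35, 12.8, 36.4 and 37.8 units in KAT 1 to 5, against 1.66, 0.448, 0.324, 0.352 and 1.16 units in KPT 1 to 5. Every KAT tumour lay above every KPT tumour, while KPAT 1, 2 and 4 lay within the KAT range and KPAT 3 and 5 within or below the KPT range. The log2 fold change was 4.47 for KAT against KPT (SE 1.14, limma adjusted p = 0.00999). For KPAT against KPT it was 2.00 (SE 1.14, limma adjusted p = 0.241), with adjusted p = 0.0402 by edgeR and 0.00229 by DESeq2 on the recovered reads. Spib is also used by plasmacytoid dendritic cells and by microfold cells, the antigen-sampling cells of epithelia. Gp2, used by microfold cells and by the zymogen granules of acinar cells, had 19.8, 108, 0.817, 53.7 and 1.95 units in KPAT 1 to 5 and 51.0, 29.0, 6.16, 57.8 and 32.2 units in KAT 1 to 5, against 1.81, 10.9, 1.46, 0.572 and 2.05 units in KPT 1 to 5. Gp2 was thus high in the same KPAT tumours as Spib (1, 2 and 4) and low in KPAT 3 and 5. The mean log2 level of 12 acinar markers followed the same split within KPAT, at 4.39, 7.25, 2.03, 6.77 and 2.75 in KPAT 1 to 5. None of the 12 was called in any comparison. Outside KPAT the acinar level and Spib did not go together. The acinar level was 9.01, 4.89, 4.635, 5.58 and 4.16 in KAT 1 to 5 and 4.65, 6.95, 4.21, 5.14 and 7.71 in KPT 1 to 5. KAT 5 thus had the highest Spib value and the lowest KAT acinar level. KPT 2 and KPT 5 lay above KAT 5 in acinar level and below every KAT tumour in Spib. Gp2 was higher in KAT than in KPT (log2 fold change 3.74, SE 1.17, limma adjusted p = 0.0276), but not with KAT 1, 4 or 5 or KPT 1, 3 or 4 left out, where the adjusted p reached 0.0632. Of 8 microfold cell markers, Spib among them, 3 were called higher in KAT against KPT (Spib, Ccl9 and Gp2), and the list summed to 659 to 900 units in KPAT, 720 to 875 in KAT and 608 to 743 in KPT. Of 10 plasmacytoid dendritic cell markers tested, 3 were called higher in KAT against KPT (Tlr9 with a log2 fold change of 3.09, Lair1 with 2.05 and Tcf4 with 0.50), 5 had a positive log2 fold change and the median was 0.09. The list summed to 176 to 537 units in KPAT and 235 to 455 in KAT against 251 to 1578 in KPT. The part of these cells in the Spib values was not tested.

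For KAT against KPT, 3 of the 10 genes (Cd22, Bank1 and Spib) had all KAT tumours above all KPT tumours, as did 9.24% of all genes tested. For Cd22 the gap between KPT 3 and KAT 2 was within counting error. Leaving out KAT 2, the count was 8, Cd79a and Cr2 being the exceptions, beside 12.1% of all genes. Without KAT 2 the test called 10 of the 10 genes higher, beside 15% of all genes. The low tumour KPT 3 stays in that fit and the lowest KAT tumour does not, so this count is a description. Leaving out the 3 libraries rich in ribosomal RNA called 9, Cr2 being the exception, beside 13.2% of all genes. On the recovered reads edgeR called 7 (15.4% of all genes higher) and DESeq2 9 (17.5%). At a minimum mean of 50 normalized counts 6 of the genes remained in the test and 3 were called (Cd22, Ighm and Spib), beside 15.5% of all genes.

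KPAT against KPT asks what floxed Arf adds where Trp53 is floxed. None of the 10 B cell genes passed in limma, none had an unadjusted p below 0.05 (32.2% of all genes had), and 16.5% of all genes tested were called in either direction. edgeR and DESeq2 each called Spib higher (9% and 11.8% of all genes higher). Log2 fold changes ran from -1.50 for Ms4a1 (SE 0.93, limma adjusted p = 0.28) to 2.00 for Spib, 4 of 10 were positive, and the median was -0.37, beside 0.02 over all genes. The ranges overlapped for each of the 10 genes, while 5.03% of all genes had all KPAT tumours above all KPT tumours and 4.93% below. With SEs of 0.38 to 1.14, differences of the size seen in KAT could be missed for several genes, so this does not show that KPAT and KPT tumours were alike.

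KPAT against KAT asks what floxed Trp53 adds where Arf is floxed. All 10 log2 fold changes were negative, with a median of -2.35 beside -0.00255 over all genes, but none passed in limma, where 0.0481% of all genes (8) were called and 0.012% were called lower. Of the 10, 8 had an unadjusted p below 0.05, beside 6.01% of all genes with a lower level at that p, edgeR called none (0.00601% of all genes lower) and DESeq2 called 7 (1.12% of all genes lower). Ms4a1, Bank1, Fcrla and Cr2 entered the test through KAT, so a lower level in KPAT was partly built into their being tested. At a minimum mean of 50 normalized counts limma called 0 of the 6 genes left, beside 0.0151% of all genes lower. Cd22 was at 2.50 ± 0.889 units in KPAT and 8.87 ± 4.66 units in KAT (SD, n = 5 each, log2 fold change -1.74, SE 0.38, limma adjusted p = 0.128). Ms4a1 was at 0.134 ± 0.126 units in KPAT and 4.29 ± 3.54 units in KAT (log2 fold change -4.14, SE 0.93, limma adjusted p = 0.128). Cd22 and Bank1 had all KPAT tumours below all KAT tumours, as did 1.3% of all genes, though for both genes the gap between KPAT 2 and KAT 2 was within counting error.

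The calls in KPAT against KAT depended on KAT 2, which is singled out here after its values were seen. It was the lowest KAT tumour for each of the 10 genes, so leaving it out raises the KAT level of every one of them, while the low tumours KPAT 5 and KPT 3 stay in, and the values without it are a description. Without it 5 of the 10 genes were lower in KPAT, beside 0.162% of all genes: Ms4a1 (log2 fold change -5.12, limma adjusted p = 0.00315), Ighm (-5.06, limma adjusted p = 0.0251), Cd79b (-3.09, limma adjusted p = 0.0253), Ighd (-4.34, limma adjusted p = 0.0276) and Cd22 (-2.0, limma adjusted p = 0.0412). They made up 5 of the 27 genes lower in KPAT in that fit, and Pax5, the B cell identity factor, was among the other 22. Without KAT 2, 9 of the 10 genes had all KPAT tumours below all KAT tumours, Spib being the exception, beside 3.5% of all genes. Leaving out the 3 libraries rich in ribosomal RNA called 3 (Cd79b, Ighd and Ms4a1, beside 0.0601% of all genes lower), and array weights called 7 (1.84% of all genes lower). In KAT against KPT array weights called 8 (20.5% of all genes higher). The tumours of each genotype enter 2 of the 3 comparisons, so the comparisons are not independent of each other.

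**Figure D2:**
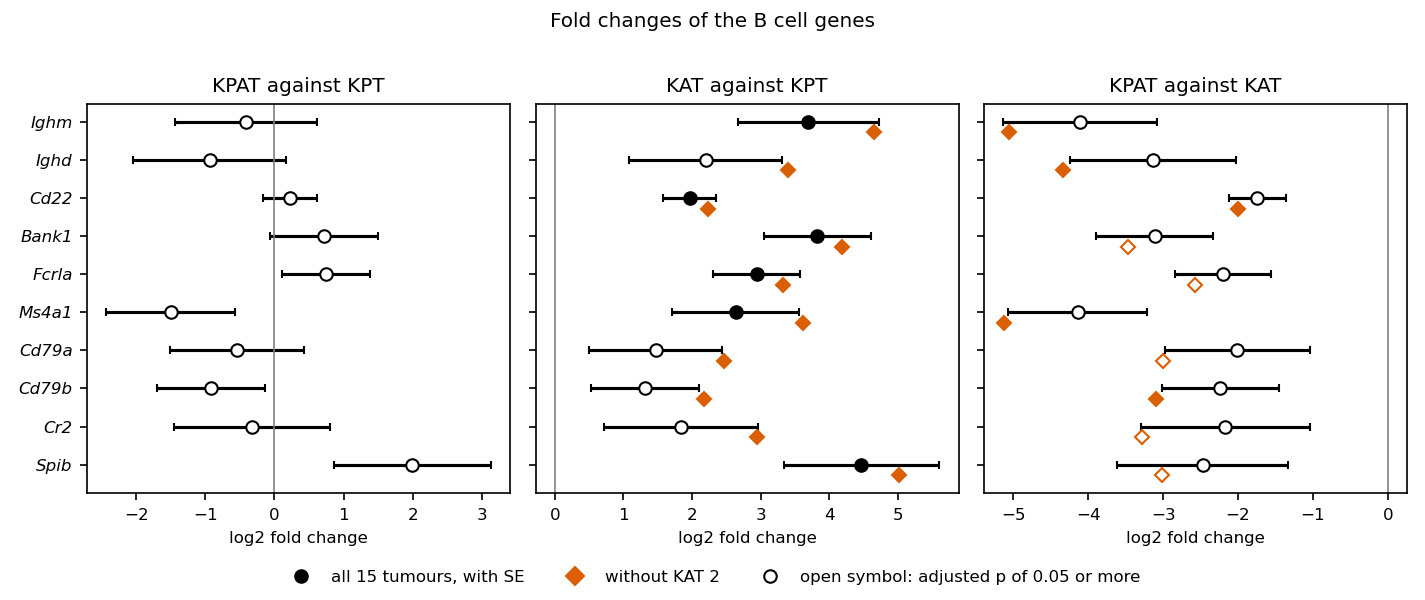
Log2 fold change of each B cell gene (x axis) in the 3 comparisons, with circles and SE bars for all 15 tumours and diamonds for the fit without KAT 2 (drawn for the comparisons with KAT), filled where the adjusted p is below 0.05. For KAT against KPT 6 circles and 10 diamonds are filled, and for KPAT against KAT 0 circles and 5 diamonds.

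The pan-leukocyte gene Ptprc (CD45) was higher in KAT and in KPAT than in KPT. It had 35.9, 42.2, 45.8, 19.2 and 14.3 units in KPAT 1 to 5 and 63.0, 45.0, 61.5, 85.0 and 67.4 units in KAT 1 to 5, against 14.0, 13.8, 18.4, 11.5 and 20.4 units in KPT 1 to 5. For KAT against KPT its log2 fold change was 2.04 (SE 0.30, limma adjusted p = 0.000409), and 13 of 14 pan-leukocyte markers were called higher. For KPAT against KPT it was 0.90 (SE 0.30, limma adjusted p = 0.0487), a call lost with any 1 of 11 libraries left out, and 5 of 14 markers were called higher. In that comparison none of the B cell genes was called. With the pan-leukocyte level as a covariate, 0 of the 10 B cell genes were called in KAT against KPT and 0.589% of all genes were called higher. Their log2 fold changes then ran from -0.43 for Cd79a to 3.16 for Cr2. The mean log2 level of the pan-leukocyte markers was 9.68 to 10.2 in KAT and 7.71 to 8.61 in KPT, with no overlap, so in this fit leukocyte level and genotype cannot be told apart. In KAT 2 the mean log2 level was 9.76 for pan-leukocyte markers, inside the 9.68 to 10.2 of the other KAT tumours, and 11.0 for macrophage markers, inside their 10.1 to 11.0. It was 3.83 for the B cell genes against 7.29 to 8.11 in the other KAT tumours, 3.75 for T cell markers against 5.63 to 6.58, 6.65 for conventional dendritic cell markers against 8.01 to 8.66 and 1.61 for NK cell markers against 3.32 to 4.11. KAT 2 was the lowest KAT tumour for 12 of the 21 gene lists on this scale. In summed units, which follow the most abundant genes, its T cell markers (239) lay above those of KAT 1 (205).

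Other genes of the lineage gave mixed calls. Of 20 other B cell surface and identity genes tested, 7 were higher in KAT than in KPT (15.6% of all genes were) and none lower. By smallest p these were Tnfrsf13b (TACI, a receptor for BAFF and APRIL), Siglecg (an inhibitory lectin), Cd72 (an inhibitory co-receptor) and Cd40 (the receptor for T cell help), with log2 fold changes of 2.44, 2.96, 2.95 and 1.79 and limma adjusted p = 0.000128, 0.000342, 0.000593 and 0.000862. Dendritic cells or macrophages also use Cd72 and Cd40. Pax5, named after its values were seen because it defines the lineage, was not called (log2 fold change 1.61, limma adjusted p = 0.265). Without KAT 2, the lowest KAT tumour for Pax5, its log2 fold change was 2.62 (limma adjusted p = 0.0326), given as a description. For KPAT against KPT 3 of these genes were called higher (Tnfrsf13b, Cd40 and Cd72, log2 fold changes 1.41, 1.46 and 1.89), beside 9.13% of all genes.

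Of 22 B cell receptor signalling genes, 11 were higher in KAT than in KPT, with median log2 fold change 0.67, beside 15.6% of all genes called higher. Pik3cd (a lymphocyte PI3-kinase subunit), Prkcb (protein kinase C beta), Syk (the kinase recruited by the receptor) and Inpp5d (the phosphatase SHIP1) had log2 fold changes of 1.73, 1.98, 1.28 and 1.28. Other leukocytes also use these genes, and KAT 2 had 35.9 units of Pik3cd and 12.5 of Prkcb, inside the ranges of the other KAT tumours or near them. Of 16 B cell transcription factor genes, 7 were higher in KAT, among them Ikzf1 (Ikaros), Spi1 (PU.1, shared with myeloid cells), Ikzf3 (Aiolos) and Mef2c, with log2 fold changes of 1.96, 1.64, 3.09 and 1.48. For KPAT against KPT, where 9.13% of all genes were called higher, 4 signalling genes (Nfatc1, Pik3cd, Fcgr2b and Inpp5d, log2 fold changes 0.66, 0.81, 0.89 and 0.66) and 3 transcription factor genes (Bcl11a, Spi1 and Ikzf1, log2 fold changes 2.23, 0.85 and 0.94) were higher. Of these, Fcgr2b, Inpp5d and Ikzf1 lost the call with any 1 of 11 libraries left out, Spi1 with any 1 of 5 and Pik3cd without KPAT 2 (limma adjusted p = 0.0531).

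The shares called among plasma cell, follicle and T cell genes were near or below the 15.6% of all genes called higher in KAT against KPT. Their fold changes were nevertheless mostly positive. The median log2 fold change was 1.64 for T cell markers (17 of 18 positive) and 1.29 for follicle genes (10 of 12). It was 1.55 for immunoglobulin constant genes (12 of 12) and 0.31 for plasma cell genes (9 of 14). Beside these stood 0.03 over all genes and 2.42 for the 10 B cell genes, so the rise was not particular to B cell genes. Of 14 plasma cell genes 1 was higher in KAT than in KPT, Irf4 (log2 fold change 3.09, limma adjusted p = 0.00443), a factor of activated B cells, plasma cells and dendritic cells. Of 12 immunoglobulin constant genes tested 1 was higher, Ighm itself. Of 12 follicle and lymph node stroma genes 1 was higher, Tnfsf13b (BAFF, a B cell survival factor), at 4.40 ± 2.04 units in KPAT and 9.07 ± 2.18 units in KAT against 3.70 ± 0.690 units in KPT (SD, n = 5 each, KAT against KPT log2 fold change 1.27, limma adjusted p = 0.00865). Of 18 T cell markers 3 were higher (Thy1, which fibroblasts also carry, Trac and Trbc1, log2 fold changes 1.33, 2.06 and 1.93), and Thy1, Trac and Trbc1 lost the call with any 1 of 3, 2 and 7 libraries left out, KAT 2 among those of Trbc1. Of the other leukocyte markers, 11 of 13 macrophage, 9 of 12 conventional dendritic cell, 3 of 10 plasmacytoid dendritic cell, 2 of 11 neutrophil, 1 of 1 NK cell and 0 of 7 mast cell genes were higher in KAT, as were 10 of 10 fibroblast genes. Among the neutrophil genes 2 were lower in KAT, with a median log2 fold change of -0.49 over the 11. In KPAT against KAT no gene of any of the lists was called by limma, while 11 of 20 other B cell genes, 12 of 18 T cell, 12 of 14 pan-leukocyte and 7 of 13 macrophage markers were lower at an unadjusted p below 0.05, beside 6.01% of all genes. How far the other cell types enter the B cell gene values was not tested.

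**Figure D3:**
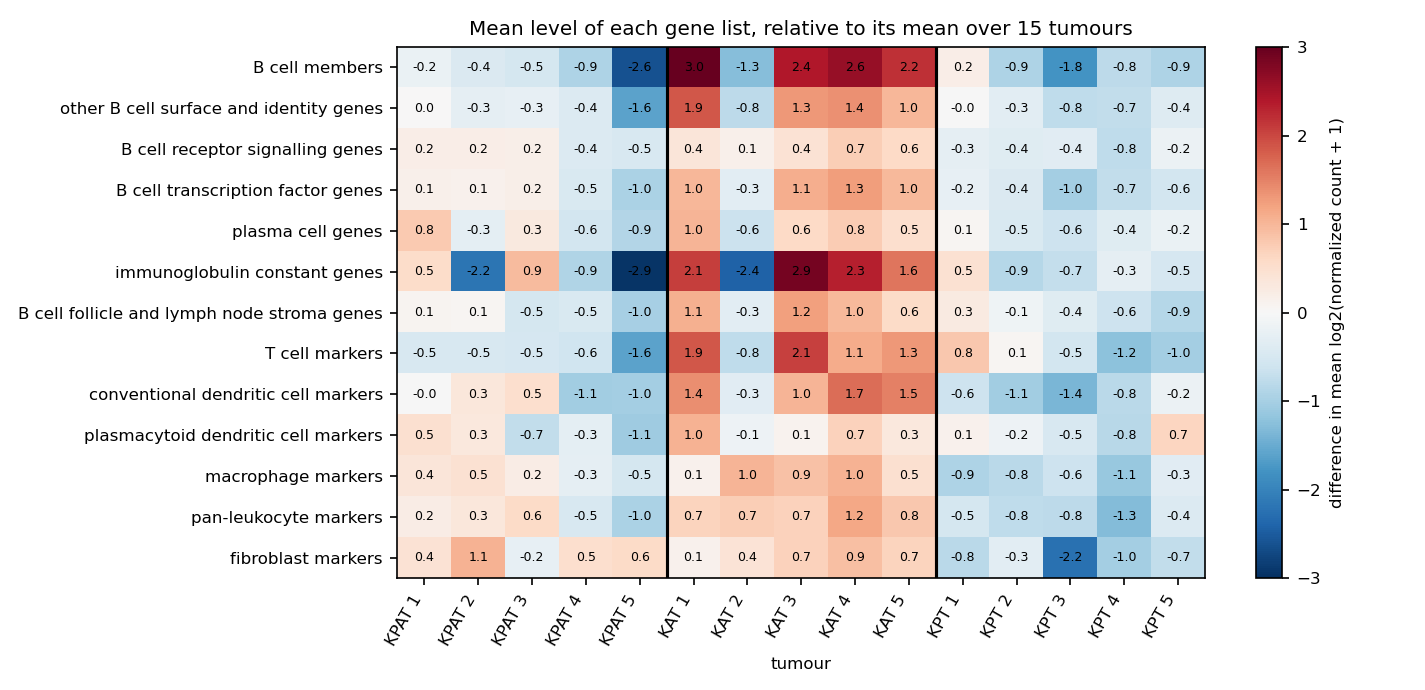
Mean log2(normalized count + 1) of each gene list (rows) in each tumour (columns, KPAT, KAT and KPT from left to right), as the difference from the mean of that list over 15 tumours. In KAT 2 the lists of B cell members, other B cell surface and identity genes, B cell transcription factor genes and T cell markers lie below their mean over all tumours. The B cell receptor signalling, macrophage and pan-leukocyte lists lie above it there.

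The balance of IgD to IgM transcripts is a ratio within each tumour. The mean log2 ratio of Ighd to Ighm was -3.95 ± 0.851 in KPAT and -4.92 ± 2.20 in KAT against -3.43 ± 1.63 in KPT (SD, n = 5 each). None of the comparisons passed the exact two-sided permutation test (p = 0.548 in KPAT against KPT, 0.238 in KAT against KPT and 0.397 in KPAT against KAT, each 0.548 after adjustment over the 3), where the smallest p that 5 against 5 tumours allow is 0.00794. KAT 1 had 2.31 Ighm reads per Ighd read, while KAT 4 had 125. Without KAT 1 the KAT against KPT difference was -2.43 (exact permutation p = 0.0397, 0.0595 adjusted), and the KPAT against KAT difference was 1.90 (exact permutation p = 0.0238, 0.0595 adjusted), so neither passed after adjustment.

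Ighm took a minor share of all heavy chain constant reads in most tumours. It held 0.578% to 5.6% of those reads in KPAT and 1.65% to 45.9% in KAT against 0.859% to 7.95% in KPT. In KAT 4 the share was 45.9% (95% Wilson interval 45.4% to 46.3%, of 49442 reads). Igha, the IgA gene of mucosal plasma cells, held more than 60% in 12 of the 15 tumours. The exceptions were KAT 3, KAT 4 and KPT 4, in which Ighg1 held 64.0%, 18.6% and 74.0%. Igha itself averaged 920 ± 1106 units in KPAT and 1261 ± 1161 units in KAT against 441 ± 497 units in KPT (SD, n = 5 each), and was not called (limma adjusted p = 0.7 in KPAT against KPT, 0.286 in KAT against KPT and 0.8 in KPAT against KAT).

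**Figure D4:**
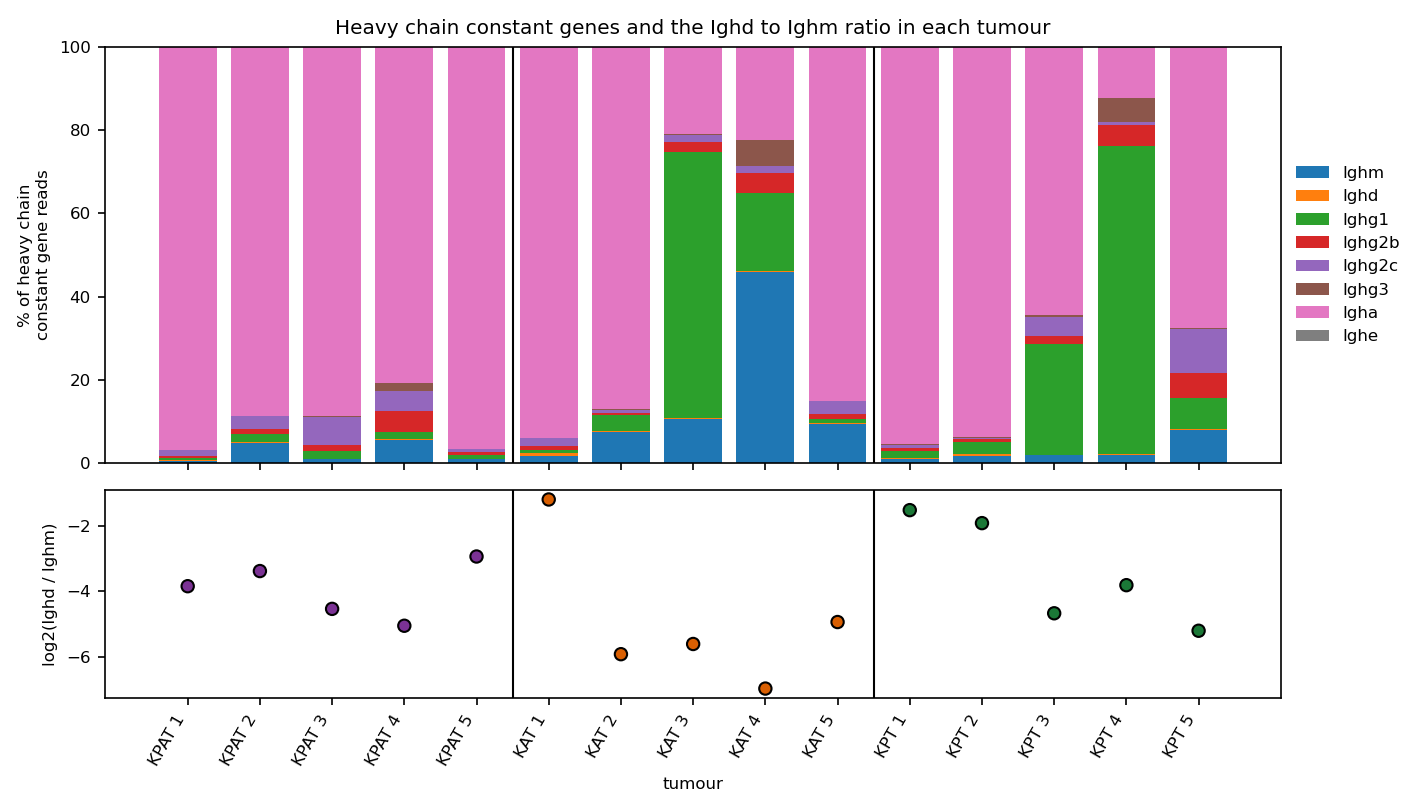
Upper panel, share of each heavy chain constant gene in the reads of all 8 (y axis, %) in each tumour; lower panel, log2 ratio of Ighd to Ighm normalized counts (1 added to each). Igha fills most bars, Ighg1 leads in KAT 3 and KPT 4, and Ighm leads in KAT 4.

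Per kilobase of exon, the order of mean levels within KAT was Ighm (187 units per kb), Cd79a (10.6), Spib (7.26), Ighd (5.07), Cd79b (5.07), Cd22 (1.76), Fcrla (1.60), Ms4a1 (0.693), Bank1 (0.539) and Cr2 (0.331). In KAT and in KPT each of the 9 steps in this order was smaller than the larger SD of the 2 genes. The step below Ighm in KAT was among them (187 ± 218 and 10.6 ± 8.34 units per kb, SD, n = 5). In KPAT 1 of 9 steps exceeded that SD (Ighd over Bank1). These SDs are between tumours, while the genes were measured in the same tumours. A step below the SD therefore does not show that 2 genes were alike. Ighm lay above Cd79a in every KAT tumour, in units and per kb, with 54.2 and 30.6 units in KAT 1 and 987 and 11.4 units in KAT 4. In KPAT the leading levels were 5.62 units per kb for Ighm, 2.85 for Spib and 2.13 for Cd79a, and in KPT they were 6.32 for Ighm, 2.73 for Cd79a and 1.55 for Cd79b. Spib stood next to Ighm in KPAT and had 0.275 units per kb in KPT, below Cd22 at 0.417.

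The 10 genes varied together across the 15 libraries to different degrees, as a description over points that share group, library and depth. Over 45 pairs the highest Pearson correlations of log2 levels were 0.98 for Ighd with Cd79b and 0.96 for Cd79a with Cd79b, and the lowest were 0.43 for Cr2 with Spib and 0.53 for Ms4a1 with Spib. The median correlation with the other 9 genes was lowest for Spib (0.60) and Cr2 (0.63) and highest for Ms4a1 and Ighd (0.77 each). Among 14448 other genes, the 10 most like the mean profile of the set over 15 libraries were H2-Ob (Pearson r 0.96), H2-Eb2 (0.96), Itgb7 (0.95), Ptprcap (0.94), Ikzf3 (0.93), Cd3g (0.93), Cd83 (0.93), Batf3 (0.93), Asb2 (0.93) and Gimap3 (0.92). H2-Ob encodes a chain of the class II chaperone H2-O of B cells, Cd3g a chain of the T cell receptor complex and Batf3 a factor of conventional dendritic cells. H2-Ob had 0.183 to 0.656 units in KPAT and 0.494 to 14.8 units in KAT against 0.432 to 1.35 units in KPT, with the KAT minimum again in KAT 2.

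Some reads of Cd22, Cd79a, Ms4a1, Spib, Bank1 and Fcrla could come from other annotated genes, through shared sequence or overlapping position. Of the 31-base words of Cd22 and Cd79a transcripts, 12.5% and 12.2% occur in other annotated transcripts, mainly of the genes Gm29439 and Gm32220 (neither is in the table), beside 4.39% for Ms4a1, 2.62% for Spib and at most 0.252% for the other 6. Cd22, Bank1 and Ms4a1 overlap antisense genes on the opposite strand (Gm29439 in the case of Cd22), and Fcrla overlaps a processed pseudogene on its own strand. The strand setting of the counting and its treatment of shared reads are not stated in the labels, so the values of these genes carry that uncertainty.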

How the data were processed

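The authors extracted RNA from whole tumours with RNeasy midi columns, made TruSeq RNA libraries and sequenced them on a HiSeq4000, per the labels' protocols. HISAT2 2.0.4 was the aligner and mm10 (GRCm38) the build, as the submitters' processing notes list them. No source used here names the counter, its annotation, its strand setting or the normalization. The table the authors deposited holds a signal value, which the values show to be whole reads scaled by 1 factor for each library: 100% of the values came within 0.01 of a whole number of reads. Samples are separate tumours by their labels. Their p-values measure the spread between these tumours.

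Symbols and coordinates came from GENCODE for GRCm38 (20574 of 20636 identifiers matched). The test had been planned for values on a read-like scale, so they were multiplied by 19.478 (geometric mean, over libraries, of the reads that 1 unit stands for). Genes with a mean of at least 10 normalized counts (16648, all 10 B cell genes among them) were fitted as log2(normalized count + 1) over 15 libraries with limma 3.58.1 in R 4.3.3 (eBayes with trend, two-sided, Benjamini-Hochberg, threshold 0.05). Ratios were compared with exact permutation tests. Alternatives included edgeR 4.0.16 and DESeq2 1.42.0 on the recovered reads. The model was tested on simulated data. Python 3.11.15, numpy 2.4.6, pandas 2.3.3 and matplotlib 3.10.9 were used for tables and plots.

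The 10 genes and the other lists were chosen with earlier results of these data known. The genes named were the 10 in every tumour, up to 4 called genes per other list and comparison by smallest p or, where none was called, genes of the highest mean level (Igha), the 10 genes most like the mean profile of the set, Ptprc, Trp53 and Cdkn2a. Pax5, Ighg1 and the variable segments fall outside this rule and were chosen after their values were seen. Ribosomal RNA shares summed the reads of 12 annotated rRNA genes.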

Additional observations from a re-analysis of the deposited data

Results flagged for a closer look

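Within the groups of 5 tumours, 36 sets of values were examined (10 B cell genes, Ptprc and the log2 ratio of Ighd to Ighm in each genotype), and 6 held 1 tumour far from the other 4. The measure is the gap to the nearest tumour divided by the whole range, with a critical value of 0.71 for 5 tumours, and chance marks about 1 group in 20. In 4 of the 6 this was KAT 2 as the lowest KAT tumour on the log2(normalized count + 1) scale. Its value was 1.65 for Ighd against 6.77 to 8.84 in the other KAT tumours (gap ratio 0.712), 1.65 for Ms4a1 against 6.10 to 7.60 (0.747), 3.41 for Cd79a against 7.57 to 9.22 (0.716) and 3.09 for Cd79b against 6.97 to 8.09 (0.776). KPAT 1 was the highest KPAT tumour for Cr2 at 3.56, against 1.66 to 2.19 in the others (0.724), which rests on 11 reads. KPT 4 was the highest KPT tumour for Cr2 at 5.69, against 1.04 to 2.30 in the others (0.73).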

How the results depend on the processing

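For KAT against KPT the 6 calls became 5 with a pseudocount of 0.5 (15.4% of all genes called higher), quantile scaling (12%), a fit of the 2 groups alone (13.9%) or without KPT 1 and KAT 1 (12.3%), 3 at a minimum mean of 50 (15.5%), 8 with array weights (20.5%), 7 on the deposited scale (15.9%) and 0 with the pan-leukocyte covariate (0.589%, 168 genes called in all). Leaving out single libraries gave 5 to 10 for these genes and 3553 to 4836 genes in all. For KPAT against KPT, edgeR and DESeq2 called 1 each. All genes called, 2752 in the reported fit, were 1811 in a fit of the 2 groups alone, 1632 with the covariate, 1735 without KPT 3, KAT 2 and KPAT 5 (left out together, as chosen after seeing the data) and 1686 to 2896 with single libraries left out, where the B cell genes stayed at 0. For KPAT against KAT, array weights and DESeq2 called 7 of the 10 (515 and 284 genes in all), leaving out those 3 libraries called 3 (17 in all), quantile scaling gave 17 genes in all and the fit of the 2 groups 15, and single libraries left out gave 0 to 5 and 7 to 36. The Ighd to Ighm difference ran from -0.97 to -0.05 for KPAT against KPT, from -2.43 to -0.99 for KAT against KPT and from 0.46 to 1.90 for KPAT against KAT with single libraries left out.

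With the covariate, signs turned for KPAT against KPT in Cd22 (-0.33), Bank1 (-0.18), Fcrla (-0.30) and Cr2 (0.25), and for KAT against KPT in Cd79a (-0.43), Cd79b (-0.40), Trac (-0.17), Tnfsf13b (-0.16) and Ccl9 (-0.14). For KPAT against KPT, single libraries left out gave -0.68 to 0.23 for Ighm (positive without KPAT 5) and -0.72 to 0.44 for Cr2 (positive without KPT 4), and Ighm was 0.07 without KPT 3, KAT 2 and KPAT 5. The cause was not tested. With the replicate number as a block, 0, 5 and 0 of the 10 genes were called (2248, 4313 and 7 genes in all), and Ms4a1 lost its KAT against KPT call. Same-numbered libraries correlated at -0.21 to 0.25 (over 0.1 for 3 of 5 pairs of KAT with KPT), and 4 of those 10 libraries correlated best with their own number, so the numbers were not taken to pair the tumours. Counting error limits Ms4a1, Bank1, Fcrla, Cr2 and Ighd, which had under 20 reads in most KPAT and KPT libraries.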

Other observations

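Reads of immunoglobulin variable segments, which developing B cells join when they rearrange their receptor genes, were led by 1 segment to different degrees. In KAT 3 the segment Ighv1-72 held 69.4% of 11747 heavy chain variable reads (95% Wilson interval 68.6% to 70.3%) and Igkv4-72 held 65.9% of 17295 kappa variable reads (65.2% to 66.6%). In KAT 4 Ighv12-3 held 24.4% of 2082 heavy chain variable reads (22.7% to 26.3%) and Igkv3-2 held 29.5% of 10777 kappa variable reads (28.7% to 30.4%). In the other 13 tumours the leading segment held 5.38% to 28.2% of heavy chain and 5.46% to 24.1% of kappa variable reads. The highest of these heavy chain shares were Ighv2-9 in KPT 4 (28.2% of 571 reads) and Ighv14-2 in KPAT 2 (24.1% of 717 reads). KAT 3 and KAT 4 are also the tumours in which Ighm was highest. In KAT 3, however, Ighg1 held 64.0% of heavy chain constant reads and Ighm 10.6%, and in KPT 4 Ighg1 held 74.0%. Intervals cover counting error only, and the treatment of reads shared between similar segments is not stated in the labels.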
